A study of Homo sapiens with 6 samples.

Results

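The PPP1 to PPP6 genes encode the subunits of the phosphoprotein phosphatase enzymes, which remove phosphate from serine and threonine. The members were taken by name: every protein-coding gene of GENCODE release 44 whose symbol starts with PPP, a digit from 1 to 6, and C for a catalytic or R for a regulatory subunit. This gave 78 of 20028 protein-coding genes, 11 of them catalytic. RNAs crosslinked to the RNA-binding protein IGF2BP3 were measured in HCT116, an established human colorectal carcinoma cell line, here of genotype Tet-OsTIR1-PURO (conditional expression of OsTIR1). All cells had received 4-thiouridine at 100 µM for 15 h before crosslinking with UV light of 365 nm. The method, infrared PAR-CLIP, sequences RNA fragments that stay bound to the immunoprecipitated protein, and crosslinking at a 4-thiouridine leaves a T-to-C conversion in the read.

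Of the 6 libraries, 5 came from an antibody against IGF2BP3 and differed in the nuclease that trimmed the RNA, given here as the concentration in U/µL in the lysate and then on the beads. Of these, 3 used RNase I (0.05/0.05, 0.1/0.025 and 0.05/0.025), which has little base preference, and 2 used RNase T1 (1/1 and 0.25/0.25), which cuts after G. The remaining library was a control with IgG and RNase I 0.1/0.025. The paper reports that the IGF2BP3 antibody also partly recognizes the related protein IGF2BP2. Clusters that came from IGF2BP2 cannot be told apart here, and the IgG control does not show them. Each condition was 1 library, so no difference between conditions could be tested, and intervals below are Wilson 95% intervals for counting error only. RNA was eluted from the gel by electroelution for RNase I 0.05/0.05 and RNase T1 1/1 and from crushed gel for the other IGF2BP3 libraries, so that gel extraction and RNase concentration cannot be told apart, except between RNase I 0.1/0.025 and 0.05/0.025, which were both from crushed gel.

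A phosphatase of this superfamily is assembled from parts. A few catalytic chains, PP1, PP2A, calcineurin (PP3), PP4, PP5 and PP6, combine with a much larger number of regulatory chains, which hold the enzyme at a place in the cell, select its substrates or inhibit it. IGF2BP3 belongs to a family of oncofetal RNA-binding proteins that bind mRNAs mostly in 3′UTRs and are known for effects on mRNA stability and translation.

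The unit of the data was the cluster, a stretch of overlapping reads with T-to-C conversions that the authors called in each library by itself. The cluster reads came to 2362467, 803490 and 670712 in the RNase I libraries, in the order above, to 1157194 and 182448 in the RNase T1 libraries and to 324 in the IgG library. The IgG library held 25 clusters, and 0 of them lay on a subunit gene. As a check of the labelled cell type, the epithelial genes EPCAM, KRT8, KRT18, KRT19, CDH1 and CLDN4 had clusters, with mean summed levels of 11.1 to 55.6 CPM (cluster reads per 1e6 cluster reads of a library). Of the intestinal genes, CDX2 had a cluster with RNase T1 1/1 only, at 4.32 CPM, and VIL1 had none. The immune, fibroblast and hepatocyte markers PTPRC, CD3E, COL1A1, COL1A2 and ALB had none. RNA abundance was not measured in these files, so a high cluster level and an abundant mRNA cannot be told apart.

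On 22 subunit mRNAs, at least 1 stretch was covered by clusters of all 5 IGF2BP3 libraries. Such stretches are places that both nucleases reported. The central bases, at most 30, of the longest such stretch are shown for 7 of the 10 mRNAs of the highest mean level. They are also shown for 4 further regulatory mRNAs, chosen because their window holds a tetramer. The printed windows therefore hold a tetramer more often than all 22 windows do. Letters are DNA letters of the sense strand, 5′ to 3′, from the hg38 genome, and capitals mark the tetramers CATT, CAGT or CATA, written with U in the RNA and searched on the sense strand only. All 11 lie in 3′UTRs.
PPP1CC, chr12:110720168-110720197, minus strand: aggcctgaacccgtcCATTcagaaagcttc
PPP2CA, chr5:134197423-134197452, minus strand: tgaatacaatttaacttcCATTtagctata
PPP3CA, chr4:101025384-101025413, minus strand: ttttaacaaaatgatgtacaaactaaggac
PPP1R15B, chr1:204404756-204404785, minus strand: tctgctttCATTccgtgtgcttcctgtcac
PPP1R8, chr1:27850653-27850682, plus strand: gaaaggcttcttatatccttttcaatagac
PPP3R1, chr2:68180493-68180522, minus strand: catccttacttttatttcacaCAGTtttat
PPP1R9B, chr17:50134041-50134070, minus strand: cccatcccatccgttttggcttcttgtccc
PPP1R12A, chr12:79774661-79774690, minus strand: ataccaccatcatgttcagacCATTttata
PPP2R5C, chr14:101926965-101926989, plus strand: acaagtatctctcCATTttacCATT
PPP2R5E, chr14:63375225-63375251, minus strand: acatcacaggcttCAGTacctgaccag
PPP4R2, chr3:73066931-73066955, plus strand: tattttcaaatttaCATAtttaaag

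Among the 22 windows, 8 held CAUU, 2 held CAGU and 1 held CAUA, and the other windows held none of these letters. Over the whole length of the 92 shared stretches on subunit mRNAs (median 26 nt), 37.0% (27.8 to 47.2) held CAUU and 7.61% (3.73 to 14.9) held CAGU. Over the 9927 stretches shared in the same way on all protein-coding genes (median 27 nt), the shares were 30.04% and 12.0%, both inside the intervals of the subunit mRNAs.

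Clusters lay on 48 of the 78 subunit mRNAs in at least 1 IGF2BP3 library, beside 46.7% of all protein-coding genes, and on 24 in all 5, beside 15.8%. The call of a target required a single cluster on the exons of the gene with over 10 CPM and over 0.5 conversion events per read. By this rule, 36 subunit mRNAs were targets in at least 1 library (46.2%, interval 35.5 to 57.1, background 29.5%) and 16 were targets in all 5 (20.5%, interval 13.04 to 30.8, background 9.91%). The 16 were the catalytic PPP1CB, PPP1CC, PPP2CA, PPP2CB and PPP3CA, the PP1 regulators PPP1R8, PPP1R9B, PPP1R12A and PPP1R15B, the PP2A regulators PPP2R2A, PPP2R5C, PPP2R5D and PPP2R5E, and PPP4R2, PPP4R3A and PPP6R3.

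In the separate libraries, 28 subunit mRNAs were targets with RNase I 0.05/0.05 (background 21.9%), 27 with RNase I 0.1/0.025 (21.3%) and 28 with RNase I 0.05/0.025 (22%). With RNase T1 1/1, 26 were targets (19.7%), and with RNase T1 0.25/0.25, 20 were (13.7%). The share of subunit mRNAs called ran from 25.6% to 35.9% and stood above the background in each library, and the lower bound of its interval did so too. The counts with any cluster were 44 (background 43.7%), 34 (32%) and 38 (30.3%) in the RNase I libraries and 43 (37.6%) and 24 (16.7%) in the RNase T1 libraries. With RNase I 0.05/0.05 and 0.1/0.025 those intervals, 45.4 to 66.9 and 33.1 to 54.6, began close to the background.

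**Figure D1:**
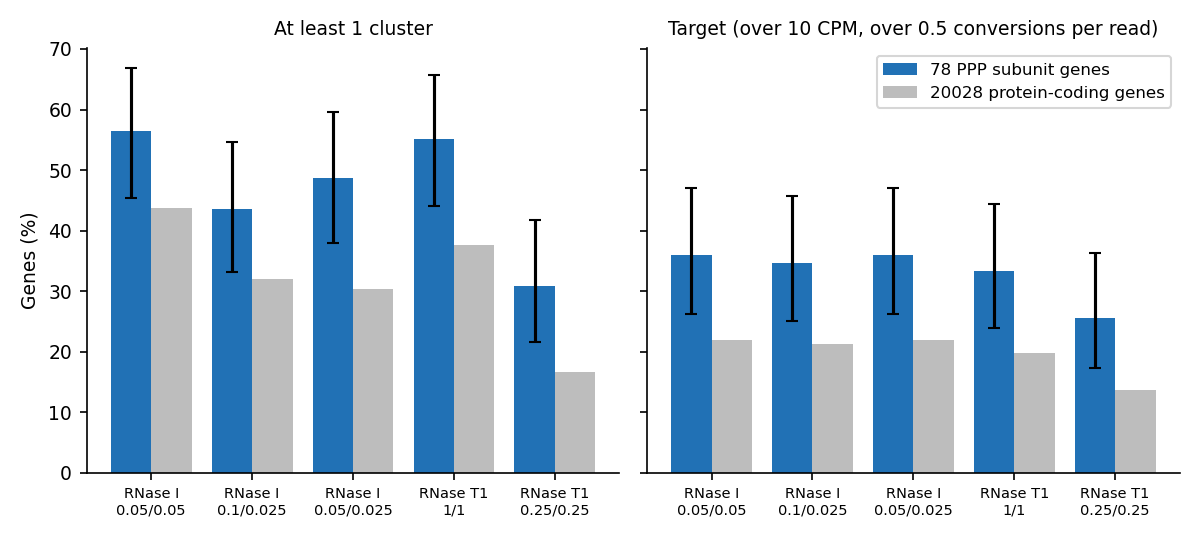
Percent of the 78 subunit genes (blue, with Wilson 95% intervals for counting error) and of all 20028 protein-coding genes (grey) with at least 1 cluster (left) and called as targets (right) in each IGF2BP3 library, named by RNase and U/µL in lysate/on beads. The blue bars stand above the grey bars in all 5 libraries, and for targets they run from 25.6% with RNase T1 0.25/0.25 to 35.9% with RNase I 0.05/0.05.

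The 10 CPM threshold meant 23.6 reads with RNase I 0.05/0.05 but 1.82 reads with RNase T1 0.25/0.25, the shallowest library, where it removed no cluster. Among the 78, the step that ended a call therefore differed: 16 subunit mRNAs with clusters had none above 10 CPM with RNase I 0.05/0.05 and 0 failed on conversions, whereas with RNase T1 0.25/0.25 all 4 that had clusters and were not called failed on conversions. With a minimum of 20 reads in place of 10 CPM, 6 were targets with RNase T1 0.25/0.25 and 5 in all 5 libraries: PPP1CC, PPP2CA, PPP2CB, PPP2R2A and PPP3CA. The share of all protein-coding genes under that minimum was not computed.

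Most of the subunit mRNAs called with one nuclease were called with the other. Of the 28 targets with RNase I 0.05/0.05 and the 26 with RNase T1 1/1, 23 were shared, which is 82.1% of the former and 88.5% of the latter, and for all protein-coding genes these shares were 72.4% and 80.7%. No subunit mRNA was a target in both RNase T1 libraries and in no RNase I library (background 0.245%). PPP1CA and PPP2R1A were targets in all 3 RNase I libraries and in no RNase T1 library, 2 of 78 beside a background of 2.17%, and they failed in different ways. PPP1CA failed on level with RNase T1 1/1 and had no cluster with RNase T1 0.25/0.25, whereas PPP2R1A failed on conversions. Calls in exactly 1 library were made for 8 subunit mRNAs (10.3%, background 5.74%).

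Summed over the clusters of a gene and averaged over the 5 IGF2BP3 libraries, the 10 highest levels were those of PPP1CC, PPP2CA, PPP3CA, PPP1CB, PPP2CB, PPP1R15B, PPP1R8, PPP3R1, PPP1R9B and PPP2R2A, from 1338 CPM down to 227 CPM. The first 5 of these genes encode catalytic chains. PPP1CC ranked 61 of the 9346 protein-coding genes with a cluster. Per kb of merged exon, the median of the 48 subunit mRNAs with a cluster was 7.53 CPM and that of all 9346 genes was 3.63 CPM. The mean of PPP1CC was 2.07 times that of PPP2CA, and each later step in this order was at most 1.33 times. Between libraries a subunit mRNA varied more than most of these steps: over the 24 with clusters in all 5, the highest level was in the median 2.04 times the lowest, from 1.31 times for PPP2R2A to 7.64 times for PPP4R3B.

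**Figure D2:**
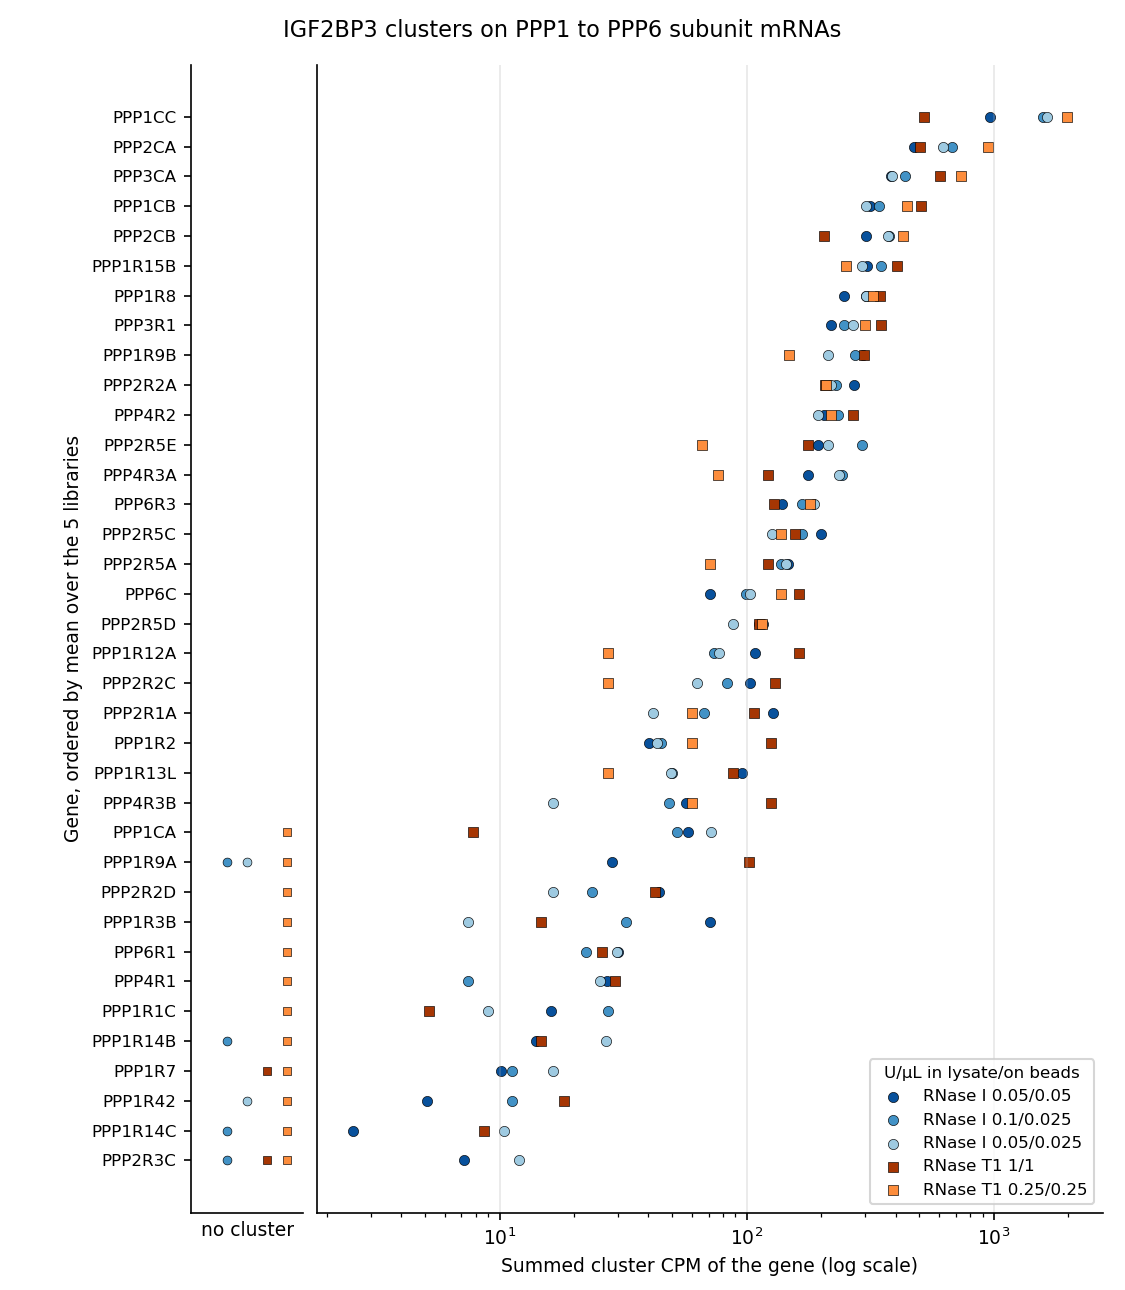
Summed cluster CPM (log scale) of the 36 subunit genes called as targets in at least 1 library, ordered by their mean, with 1 point per IGF2BP3 library (circles RNase I, squares RNase T1) and libraries without a cluster in the left panel. PPP1CC lies highest, at 524 to 1973 CPM, and PPP1CA is the highest gene with a library without a cluster (RNase T1 0.25/0.25).

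PP1 has 3 catalytic genes, which encode closely related phosphatases, and IGF2BP3 clusters were spread unevenly over them. PPP1CC had summed levels of 966, 1582 and 1645 CPM in the RNase I libraries and of 524 and 1973 CPM in the RNase T1 libraries. PPP1CB had 315, 342 and 303 CPM and then 508 and 444 CPM. PPP1CA had 57.6, 52.3 and 71.6 CPM with RNase I, 7.78 CPM with RNase T1 1/1 and no cluster with RNase T1 0.25/0.25.

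PPP1CC thus stood above PPP1CB in all 5 libraries, but by very different margins. PPP1CC held 72.2% (70.6 to 73.7), 80.04% and 81.5% of the reads of the 3 genes with RNase I and 81.6% (77.8 to 85.0) with RNase T1 0.25/0.25. With RNase T1 1/1 it held 50.4% (47.6 to 53.2) and PPP1CB held 48.9% (46.1 to 51.7), intervals that overlap.

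The 3 mRNAs have 3′UTRs of unlike length, 352 nt for PPP1CA, 3637 nt for PPP1CB and 1396 nt for PPP1CC in the canonical transcript. Counted per kb of 3′UTR, from the clusters that touch it, PPP1CA reached 126, 99 and 174 CPM per kb in the RNase I libraries and PPP1CB 83.7, 94.1 and 83.2. The order of PPP1CA and PPP1CB on this scale was therefore turned with RNase I, but the PPP1CA values rest on few clusters. With RNase I 0.1/0.025 there was 1 cluster, of 28 reads. With RNase I 0.05/0.025 the top cluster, of 134 nt, was counted in full though it reaches only 63 nt past the stop codon. With RNase T1 1/1 PPP1CA had 22.1 CPM per kb and PPP1CB 140. PPP1CC remained highest on this scale too, at 659, 1108, 1124, 365 and 1413 CPM per kb.

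On PPP1CC the RNase I reads ran together into very long clusters, and the RNase T1 reads broke the same region into short ones. The longest PPP1CC cluster measured 786, 574 and 563 nt with RNase I and 187 and 100 nt with RNase T1. Its 3′UTR was under clusters over 89.6%, 90.5% and 88.0% of its length with RNase I and over 55.5% and 53.6% with RNase T1. The stretches covered in all 5 libraries came to 571 nt on PPP1CC, the most of any subunit mRNA, and the longest, 97 nt, holds the PPP1CC window printed above, which starts 879 nt after the stop codon.

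The clusters over that window had 607, 682 and 808 CPM with RNase I and 205 and 296 CPM with RNase T1, with 0.64, 0.65, 0.63, 0.49 and 0.69 conversion events per read. PPP1CB showed another arrangement, with 18 to 24 clusters in 4 libraries and 11 in the shallowest, none above 71.3 CPM, spread along its 3′UTR.

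**Figure D3:**
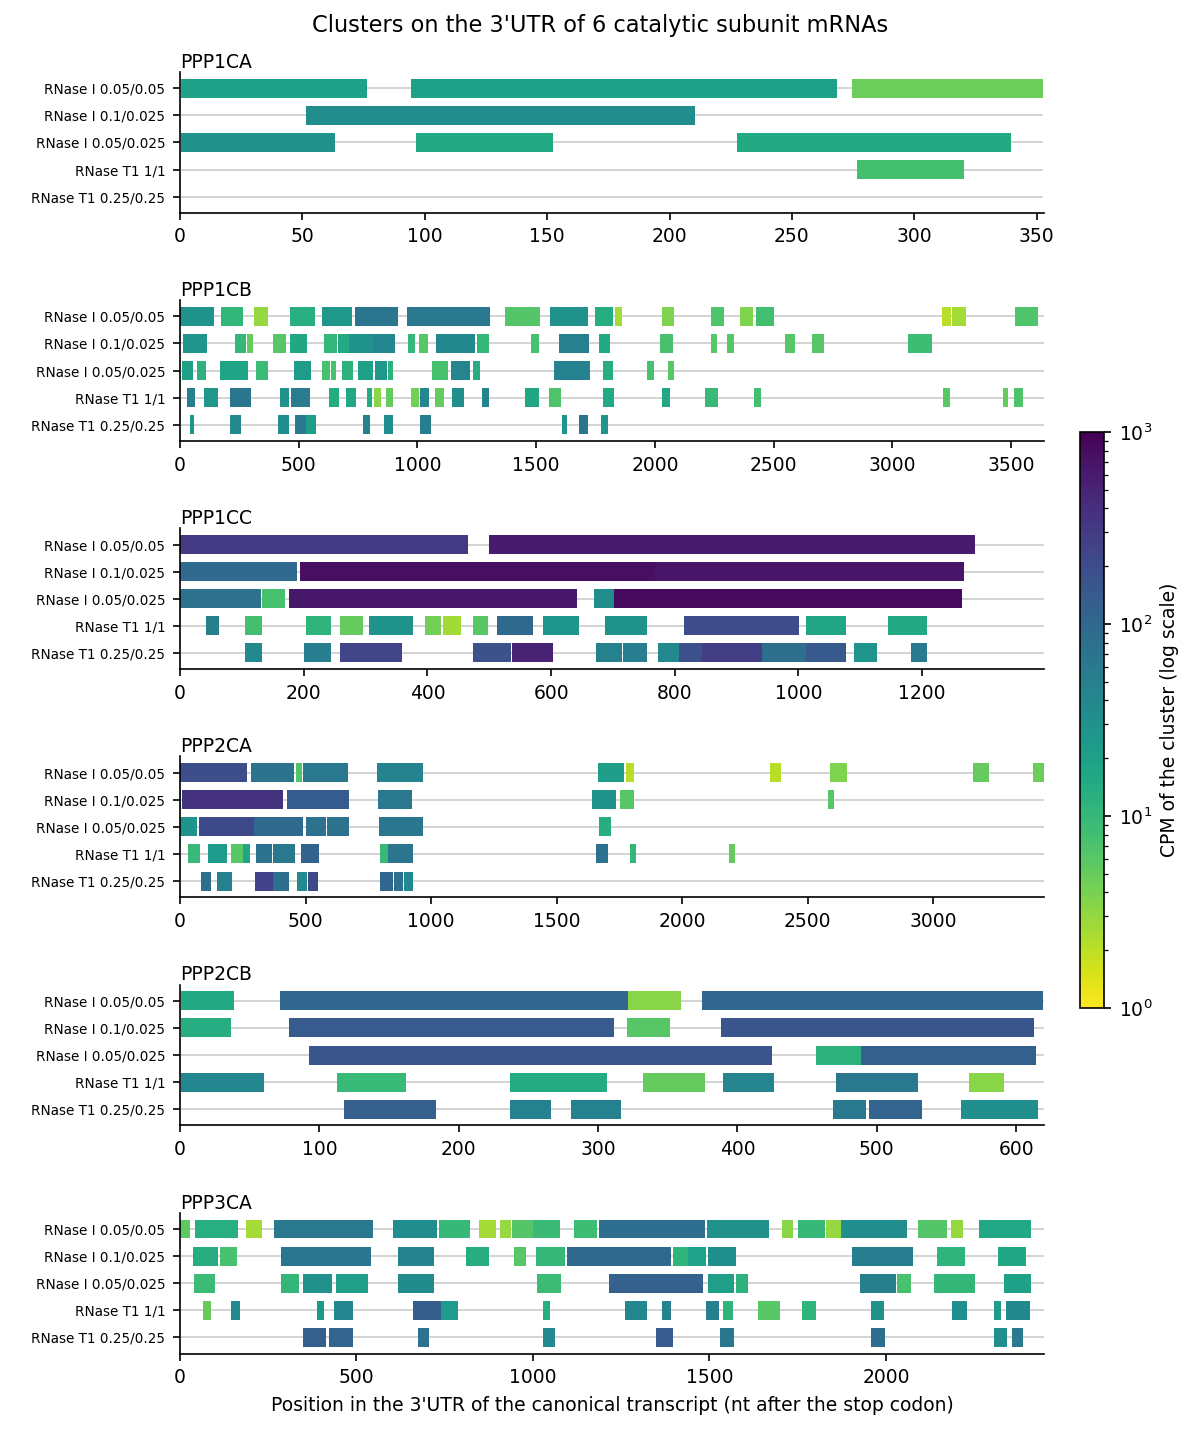
Clusters of the 5 IGF2BP3 libraries along the canonical 3′UTR (nt after the stop codon) of 6 catalytic subunit mRNAs, each bar a cluster and its colour the CPM of the cluster (log scale). PPP1CC is covered over 88.0% or more of its 3′UTR with RNase I, up to 1264 nt or more after the stop codon of its 1396 nt, PPP2CA mostly in the part near the stop codon, and PPP1CA has 1 cluster with RNase T1 1/1 and none with RNase T1 0.25/0.25.

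PPP1CA fell under the level threshold with RNase T1: its only RNase T1 1/1 cluster had 9 reads, at 0.889 conversion events per read. An absent cluster means only that none was called, not that no read was there. PPP1CA was also the subunit mRNA whose 3′UTR was covered most fully with RNase I 0.05/0.05, at 93.2%, followed by PPP2CB at 92.2% and PPP1CC at 89.6%, and with RNase T1 1/1 its coverage was 12.5%.

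The regulators of PP1 fall into several classes. Of 11 inhibitor genes, which encode small proteins that block the catalytic chain, 4 were targets in at least 1 library, beside 29.5% of all protein-coding genes, and 0 in all 5, beside 9.91%, counts too small to set this class apart. The leading inhibitor was PPP1R2 (inhibitor-2), with 40.2, 44.8 and 43.2 CPM with RNase I and 125 and 60.3 CPM with RNase T1. It was highest with RNase T1 1/1, and its RNase T1 0.25/0.25 value rests on 2 clusters, the larger of 8 reads. With RNase I 0.05/0.05 no PPP1R2 cluster passed 10 CPM. Of the other inhibitor genes, 6 had no cluster at all, among them PPP1R1A (inhibitor-1) and PPP1R1B (DARPP-32), which serve hormone and dopamine signalling.

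Of the 7 genes that bring PP1 to glycogen, 2 had a cluster, beside 46.7% of all protein-coding genes, and only PPP1R3B, a glycogen targeting subunit known from liver, was a target, with RNase I 0.05/0.05. Its levels were 71.1, 32.4 and 7.45 CPM with RNase I, 14.7 CPM with RNase T1 1/1 and none with RNase T1 0.25/0.25. Of the 5 myosin targeting and like genes, PPP1R12A, which encodes the myosin phosphatase targeting subunit MYPT1, was the only target, and it was one in all 5 libraries at 108, 73.4, 77.5, 163 and 27.4 CPM. Among all protein-coding genes, 29.5% were targets in at least 1 library and 9.91% in all 5.

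The nuclear and scaffold regulators held the highest single levels among the regulators of PP1, beside PPP1R15B. PPP1R8, which encodes the nuclear inhibitor of PP1 (NIPP1), had 247, 304 and 303 CPM with RNase I and 347 and 323 CPM with RNase T1, a range of 1.41 times. PPP1R9B, which encodes the actin-binding scaffold spinophilin, had 295, 274 and 213 CPM and then 297 and 148 CPM. PPP1R8 was the higher of these in 4 libraries and PPP1R9B with RNase I 0.05/0.05, so their order is not settled.

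The related scaffold gene PPP1R9A, for neurabin-1, had 28.4 CPM with RNase I 0.05/0.05, 102 CPM with RNase T1 1/1 and no cluster in the other libraries, and was a target with RNase T1 1/1 only. PPP1R13L, which encodes iASPP, an inhibitor of p53, had 95.2, 49.8 and 49.2 CPM and then 88.1 and 27.4 CPM and was a target in 3 libraries. Its highest conversion rate among clusters above 10 CPM was 0.417 with RNase I 0.1/0.025 and 0.478 with RNase I 0.05/0.025, under the 0.5 threshold.

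The 2 genes whose products bring PP1 to the translation factor eIF2α stood far apart. PPP1R15B, which encodes the constitutive subunit CReP, had 305, 348 and 292 CPM with RNase I and 406 and 252 CPM with RNase T1 and was a target throughout. PPP1R15A, which encodes the stress-induced GADD34, had 14.9 CPM with RNase I 0.05/0.025, 6.05 CPM with RNase T1 1/1 and none elsewhere, and was a target in no library. The canonical PPP1R15A 3′UTR is 85 nt and that of PPP1R15B is 2711 nt.

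Among the remaining PP1 regulators, 9 genes, the only target was PPP1R42, beside 29.5% of all protein-coding genes as targets in at least 1 library. The 4 PPP1R42 clusters all lie on exons shared with COPS5, so that the reads cannot be assigned to either gene. They summed to 5.08 CPM with RNase I 0.05/0.05, 11.2 CPM with RNase I 0.1/0.025 and 18.1 CPM with RNase T1 1/1.

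PP2A is a trimer of a catalytic, a scaffold and a B-type regulatory chain, and clusters lay on mRNAs of each kind. Both catalytic mRNAs were targets in all 5 libraries. PPP2CA had 474, 677 and 625 CPM with RNase I and 503 and 948 CPM with RNase T1, and PPP2CB had 303, 376 and 373 CPM and then 205 and 428 CPM. PPP2CA was higher in every library and held 61.0% (58.7 to 63.2) to 71.1% (67.9 to 74.1) of their joint reads.

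Per kb of 3′UTR the order of these paralogs was the reverse, since the canonical 3′UTR measures 3440 nt in PPP2CA and 619 nt in PPP2CB. PPP2CB had 367, 529, 482, 293 and 691 CPM per kb and PPP2CA 124, 185, 171, 138 and 276, so PPP2CB was higher in all 5 libraries. This scale divides by the whole canonical 3′UTR, but 80.9% or more of the PPP2CA 3′UTR cluster CPM lay in its first 1000 nt. The order of the paralogs thus depends on the length counted. Of the 66 PPP2CA clusters, 50 also overlap exons of a second protein-coding gene record, ENSG00000273345, and reads cannot be divided between them. Without those clusters PPP2CA kept 39.8, 41.1, 13.4, 113 and 38.4 CPM and was no longer a target with RNase T1 1/1. Its summed level was then below that of PPP2CB in every library, so its lead in summed CPM rests on the shared clusters.

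On PPP2CA the first 1000 nt after the stop codon held 90.7%, 93.5% and 97.7% of the 3′UTR cluster CPM with RNase I and 80.9% and 100% with RNase T1, and the window printed above starts 320 nt after it. Clusters over that window had 72.4, 366 and 98.4 CPM with RNase I and 73.5 and 258 CPM with RNase T1.

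The scaffold mRNA PPP2R1A had 128, 67.2 and 41.7 CPM with RNase I and 107 and 60.3 CPM with RNase T1. It failed as a target with RNase T1 on conversions and not on level: its highest rate among clusters above 10 CPM was exactly 0.500 with RNase T1 1/1 and 0.455 with RNase T1 0.25/0.25, beside 0.745, 0.667 and 0.857 with RNase I. It was also 1 of 2 mRNAs, with PPP1R2, that had clusters in all 5 libraries but no base covered in all of them. The second scaffold gene, PPP2R1B, had 7.47 to 19.0 CPM in 4 libraries and was no target.

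Of the 5 genes of the B56 (PPP2R5) family of regulatory chains, 4 were targets in at least 1 library and 3 in all 5, beside the 29.5% and 9.91% of all genes, and PPP2R5B had no cluster. Differences between classes were not tested. PPP2R5E led by summed level, at 193, 292, 213, 176 and 65.8 CPM, with the lowest value in the shallowest library. PPP2R5C had 200, 167, 127, 156 and 137 CPM and PPP2R5D had 116, 112, 88.0, 112 and 115 CPM, so that PPP2R5D varied by 1.32 times only. PPP2R5A, at 147, 138, 145, 122 and 71.3 CPM, lacked the call with RNase T1 1/1, where its best rate above 10 CPM was 0.326.

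In the B55 (PPP2R2) family, 3 of 4 genes were targets in at least 1 library, beside 29.5% of all protein-coding genes. PPP2R2A, which encodes the B55α chain that opposes mitotic kinases, had 271, 230, 219, 207 and 208 CPM, the narrowest range among the 24 subunit mRNAs with clusters in all 5 libraries, and PPP2R2B had no cluster. PPP2R2C was a target in 4 libraries, at 103, 83.4, 62.6, 130 and 27.4 CPM. Of the 3 PPP2R3 genes, PPP2R3C alone had clusters, beside 46.7% of all protein-coding genes with a cluster in at least 1 library. It had 7.20 and 11.9 CPM with RNase I 0.05/0.05 and 0.05/0.025 and was a target in the latter (background 22%).

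Calcineurin is a calcium-activated phosphatase of a catalytic A chain and a calcium-binding B chain, and here IGF2BP3 clusters fell almost wholly on 1 gene of each. PPP3CA had 382, 436 and 388 CPM with RNase I and 606 and 734 CPM with RNase T1, higher in both RNase T1 libraries than in any RNase I library. PPP3CB had 3.39 CPM with RNase I 0.05/0.05, 6.05 CPM with RNase T1 1/1 and no cluster elsewhere, and PPP3CC had none. PPP3CA held at least 99.01% of the reads of the 3 genes in each library.

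PPP3R1, which encodes the B chain, had 220, 248 and 268 CPM with RNase I and 350 and 301 CPM with RNase T1, and PPP3R2 had no cluster. PPP3R1 showed a strong site with few conversions. Clusters over the window printed above, which starts 441 nt after the stop codon, had 50.8, 53.5 and 71.6 CPM with RNase I and 105 and 214 CPM with RNase T1, but 0.48, 0.40, 0.42, 0.35 and 0.13 conversion events per read, under 0.5 in all 5 libraries. That site alone would have made PPP3R1 a target nowhere, and with RNase T1 0.25/0.25 no other cluster of it passed either.

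PP4 had clusters mainly on its regulatory mRNAs. The catalytic PPP4C had 19.0, 0 and 19.4 CPM with RNase I and 11.2 and 0 CPM with RNase T1, where 0 stands for no cluster, and was a target in no library. PPP4R2, a subunit for assembly and targeting of PP4, had 206, 234, 194, 268 and 219 CPM, and PPP4R3A, a substrate-binding subunit, had 177, 244, 237, 122 and 76.7 CPM. Both were targets in all 5 libraries. PPP4R3B had 56.7, 48.5, 16.4, 125 and 60.3 CPM, and 48.7% of its summed CPM lay on exons with neither coding sequence nor UTR annotation.

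PPP5C, the only gene of PP5, which is a catalytic chain with its own regulatory domain, had no cluster in any library. For PP6, the catalytic PPP6C had 70.7, 99.6 and 103 CPM with RNase I and 162 and 137 CPM with RNase T1, and its best rate above 10 CPM with RNase T1 0.25/0.25 was exactly 0.500, which is not above the threshold. PPP6R3, the leading PP6 regulator, was a target throughout at 139, 168, 186, 129 and 181 CPM, and PPP6R2 had no cluster.

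Across the 17 subunit classes, the median level per kb of exon, averaged over libraries, was 87.002 CPM for the PP2A catalytic class, 51.7 CPM for PP1 catalytic, 20.5 CPM for the B56 family, 17.8 CPM for the eIF2α class and 11.3 CPM for PP6. With the mean over members in place of the median, PP2A and PP1 catalytic remained first at 87.002 and 84.9 CPM, and the PP1 nuclear class (36.8 CPM, led by PPP1R8) and calcineurin (36.1 CPM, led by PPP3CA) came next. The first place of the PP2A catalytic class rested on the PPP2CA clusters shared with the second gene record: with clusters on exons of 1 gene only, an alternative added after the values were seen, the medians were 50.7 CPM for PP1 catalytic and 41.1 CPM for PP2A catalytic. Over all classes, 30 subunit mRNAs had no cluster in any library.

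The cluster reads of the subunit mRNAs lay mostly in 3′UTRs. With a cluster given to the 3′UTR wherever it touched one, the share of reads there was 90.6%, 93.4% and 91.2% with RNase I and 94.9% and 98.5% with RNase T1, beside 85.7% to 91.3% for all protein-coding genes. This order against all genes depended on how a cluster that spans a stop codon was counted. With coding sequence taken first, the subunit mRNAs had 60.4% and 71.0% with RNase I 0.05/0.05 and 0.05/0.025, below the 68.2% and 71.7% of all genes, and in the other libraries they stayed above.

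Some members had a large coding share. PPP1R15A, with 3 clusters in all, had 64.4% of its summed CPM in coding sequence, PPP4R3A 38.6%, PPP6R1 26.7%, PPP1CA 21.7% and PPP1R15B 21.2%. The share moved with the library: for PPP1R15B it was 32.2%, 22.5% and 50% of its reads with RNase I and 4.47% and 0% with RNase T1, while PPP4R3A kept 26.2% to 57.1% in all 5 libraries. By contrast, PPP1CB, PPP1R12A, PPP3R1 and PPP1R9B had all of their CPM in the 3′UTR of any of their transcripts. With RNase I 0.05/0.05, 19 of the 22 PPP1CB clusters touched the 3′UTR of its canonical transcript. Within the 3′UTR, the median position of a cluster, from 0 at the stop codon to 1 at the end, was 0.392, 0.368 and 0.329 with RNase I and 0.388 and 0.394 with RNase T1, and the median of all genes lay between 0.400 and 0.429. Counted by reads, the position against all genes differed between libraries: the 20% of the 3′UTR nearest the stop codon held 33.5% of the reads of subunit mRNAs against 26.9% for all genes with RNase I 0.05/0.05, but 26.5% against 30.1% with RNase T1 0.25/0.25. Targets also had longer 3′UTRs, with a median of 2161.5 nt against 861.5 nt for the subunit mRNAs called in no library, and the same held for all genes, at 1785.5 nt against 809 nt.

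RNase I 0.05/0.05 covered more of each 3′UTR than RNase T1 1/1. Of the 38 subunit mRNAs with 3′UTR clusters in both libraries, 38 were covered more broadly with RNase I (lower bound 90.8%), at medians of 38.2% against 14.001%, and among all genes 94.7% of 6285 were. RNase I 0.05/0.05 is also the deepest library, so the comparison was repeated with the RNase I 0.1/0.025 library, which has fewer reads than RNase T1 1/1: 28 of 32 were covered more broadly there, at medians of 25.4% against 14.5%, beside 69.5% of 5095 genes. With RNase I 0.05/0.025, 24 of 34 were, at 21.5% against 16.4%, beside 59.99% of 4829 genes. The median difference thus had the same direction but a smaller size when the RNase I library was the shallower one. Those RNase I libraries also differed from RNase T1 1/1 in gel extraction, whose part was not tested.

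**Figure D4:**
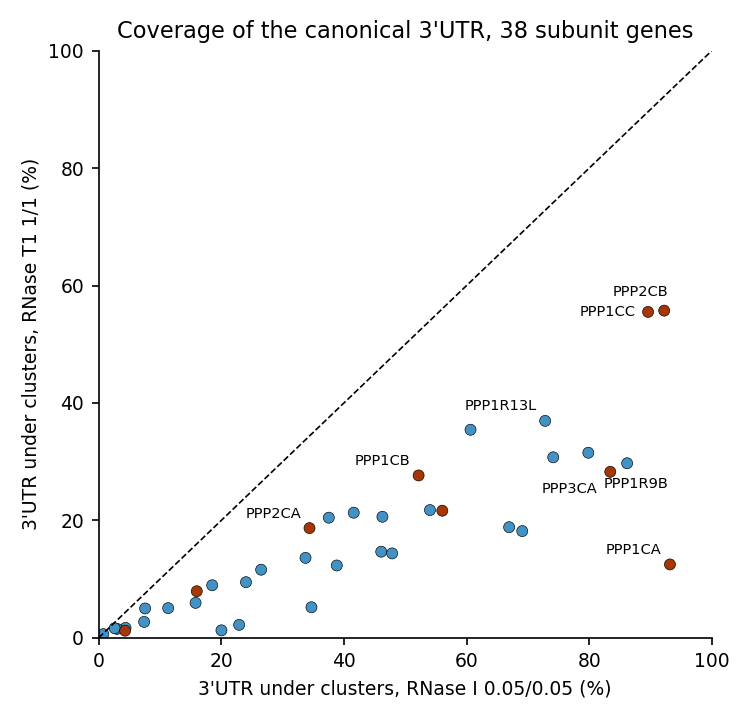
Percent of the canonical 3′UTR of each subunit mRNA under clusters with RNase I 0.05/0.05 (horizontal axis) and with RNase T1 1/1 (vertical axis), 1 point per mRNA with 3′UTR clusters in both libraries (orange catalytic, blue regulatory), with equal coverage as a dashed line. All 38 points lie below the line, with PPP1CA at 93.2% against 12.5%, PPP2CB at 92.2% against 55.7% and PPP1CC at 89.6% against 55.5%.

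Most RNase T1 clusters overlapped, by 1 nt or more, a cluster of RNase I 0.05/0.05, the deepest library. Of the 328 RNase T1 1/1 clusters on subunit mRNAs, 266 (81.1%, interval 76.5 to 85.0) overlapped an RNase I 0.05/0.05 cluster, and among all genes 77.0% did. Of the 97 RNase T1 0.25/0.25 clusters, 94 did. When each cluster of a pair had to cover 50% of the other, the share fell to 20.1% for RNase T1 1/1. With the shallower RNase I 0.1/0.025 and 0.05/0.025 libraries, 59.8% and 54.3% of the RNase T1 1/1 clusters had an overlap of 1 nt or more. The median cluster on subunit mRNAs was 59 nt long with RNase I 0.05/0.05 and 35 nt with RNase T1 1/1.

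The cluster with the most reads was seldom the same one. Of the 42 subunit mRNAs with clusters in more than 1 library, 8 had top clusters that overlapped in all libraries where they had any. Between RNase I 0.05/0.05 and RNase T1 1/1, the top clusters of 18 of 39 overlapped. Shared ground was nevertheless common: 22 of the 24 subunit mRNAs with clusters in all 5 libraries (91.7%, interval 74.2 to 97.7) had bases covered in all of them, beside 79.1% of 3159 protein-coding genes. These bases came to 571 nt on PPP1CC, 329 nt on PPP2CA, 242 nt on PPP3CA, 183 nt on PPP2CB and 152 nt on PPP1CB.

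The tetramers CAUU and CAGU, searched in each cluster on its own strand, differed in how they depended on the nuclease. CAUU lay in 41.9%, 41.8% and 43.3% of the clusters on subunit mRNAs with RNase I and in 35.4% and 50.5% with RNase T1. CAGU lay in 35.9%, 31.6% and 32.2% with RNase I and in 11.9% and 10.3% with RNase T1, which cuts after the G of this tetramer. All protein-coding genes had 34.1% to 35.1% with RNase I and 11.8% and 18.7% with RNase T1, a gap of the same direction. For CAUU and CAGU, the interval of the subunit mRNAs left out the value of all genes in the shallowest library only, RNase T1 0.25/0.25. There it was 40.7 to 60.3 against 40.01% for CAUU and 5.70 to 17.9 against 18.7% for CAGU, on 97 clusters. CAUA, also marked in the windows above, lay in 28.01% (23.98 to 32.4) with RNase I 0.05/0.05, against 23.4% for all genes. With RNase I 0.1/0.025, CAUA lay in 30.5% (25.2 to 36.4) against 24.4%. With RNase I 0.05/0.025 and in both RNase T1 libraries, the CAUA interval held the value of all genes.

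RNase T1 clusters were shorter than RNase I clusters, and a shorter cluster has fewer positions for a tetramer, so length and nuclease cannot be told apart in these shares. The last base of a cluster on subunit mRNAs was G in 9.72%, 17.97% and 12.9% with RNase I and in 93.9% and 90.7% with RNase T1.

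**Figure D5:**
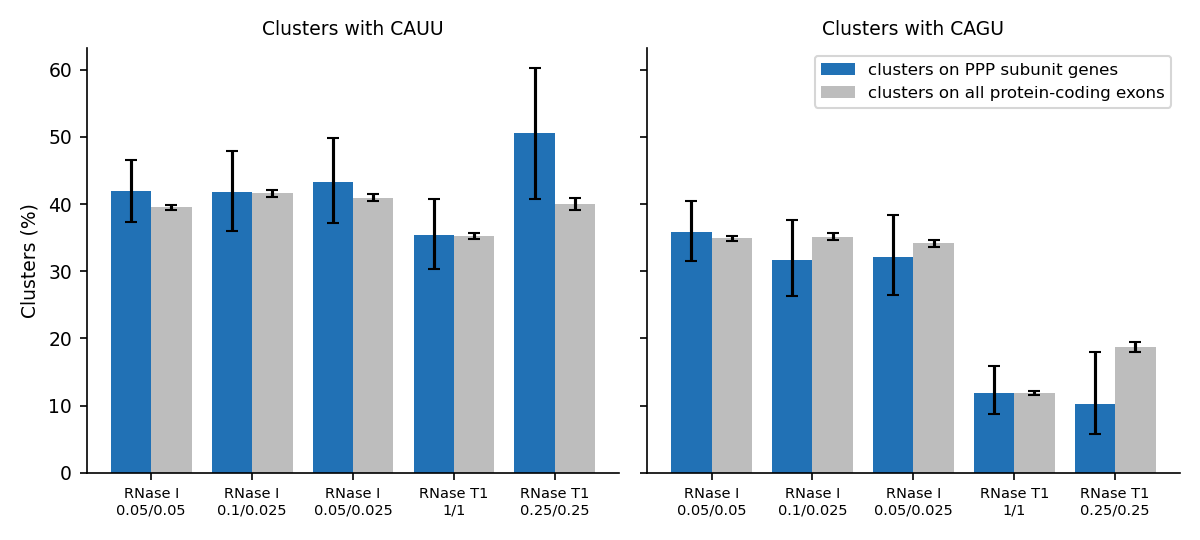
Percent of clusters that hold CAUU and CAGU in each IGF2BP3 library, for clusters on subunit mRNAs (blue) and on all protein-coding genes (grey), with Wilson 95% intervals for counting error. CAGU falls from 31.6% or more with RNase I to 11.9% and 10.3% with RNase T1 on subunit mRNAs, while CAUU lies between 35.4% and 50.5%.

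Beyond the subunits, 36 genes for phosphatase partners, inhibitors and substrates of other names were listed beside them. Of these, 23 were targets in at least 1 library, beside 29.5% of all protein-coding genes, and 9 in all 5, beside 9.91%. ARPP19, which encodes a mitotic inhibitor of PP2A-B55, stood above every subunit mRNA, at 1907, 2881 and 2566 CPM with RNase I and 3226 and 5059 CPM with RNase T1.

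The next in level included mRNAs for other PP2A inhibitors and PP1 partners. SET, which encodes a PP2A inhibitor, had 353, 472, 596, 352 and 526 CPM, and ANP32A, for another, had 408, 510, 587, 220 and 471 CPM. WDR82, for a partner in a nuclear PP1 complex, had 505, 536, 531, 359 and 307 CPM. PHACTR4, for a PP1 and actin regulator, had 255, 391, 313, 281 and 290 CPM. By mean level, SET (460 CPM), WDR82 (447 CPM) and ANP32A (440 CPM) stood between PPP3CA (509 CPM) and PPP1CB (382 CPM).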

How the data were processed

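The authors extracted UMIs with UMI-tools 1.1.1, trimmed reads with Trimmomatic 0.30, kept those of 18 to 45 nt, aligned them to GRCh38.p13 (hg38) with Bowtie 0.12.7 at up to 3 mismatches, removed UMI duplicates and called clusters in each library by itself with PARalyzer, whose settings file, a supplement of the study, was not used here. The deposited values are counts per cluster: reads, conversion events and non-conversion events, not normalized. A file lists called clusters only, so a gene without a cluster may still have had reads.

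From these counts, CPM was computed as cluster reads per 1e6 cluster reads of the library, and clusters were joined to GENCODE release 44 genes by exon overlap of 1 nt or more on the same strand. A cluster on exons of several genes counted for each. A target had a cluster with more than 10 CPM and more than 0.5 conversion events per read. Intervals are Wilson 95% intervals (scipy 1.17.1, Python 3.11.15, numpy 2.4.6, pandas 2.3.3, pysam 0.24.0, figures with matplotlib 3.10.9). Scripts were tested on simulated data.

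The members and lists were chosen with earlier results of these data known. Genes were named by rule: the 10 highest mean levels, all catalytic genes, genes called with 1 nuclease only, the leading gene of each class with a target, the 3 highest 3′UTR coverages with RNase I 0.05/0.05 and the 5 highest related genes. Other genes were named after their values were seen. Sequences come from the hg38 genome, and those of some leading mRNAs are not reported here.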

Additional observations from a re-analysis of the deposited data

How the results depend on the processing

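No paired analysis was possible because each condition was 1 library. Of 116 values recomputed under other settings, 75 stayed within their limit, which was 1.5 times for a count and the 95% counting interval for a share, and 41 passed it, some by little, as follows; the cause was not tested unless given. A minimum of 20 reads in place of 10 CPM, which binds in shallow libraries, left 18 targets with RNase I 0.05/0.025, 6 with RNase T1 0.25/0.25 and 5 in all 5 libraries. More than 0.75 conversion events per read left 11, 16, 9 and 13 targets with RNase I 0.05/0.05, RNase I 0.1/0.025, RNase T1 1/1 and RNase T1 0.25/0.25, and 3 in all 5 libraries (PPP1R15B, PPP2R2A and PPP4R2). With clusters of 20 reads or more, 21, 19, 27 and 8 subunit mRNAs had a cluster with RNase I 0.1/0.025, RNase I 0.05/0.025, RNase T1 1/1 and RNase T1 0.25/0.25. The 3′UTR share of reads became 60.4%, 76.3%, 71.0%, 87.4% and 91.4% with coding sequence taken first, and 87.7%, 92.4%, 89.4% and 93.7% in the first 4 libraries with canonical transcripts only. Broader 3′UTR coverage than with RNase T1 1/1 held for 28 of 32 mRNAs with RNase I 0.1/0.025 and 24 of 34 with RNase I 0.05/0.025. A reciprocal overlap of 50% left 20.1% of RNase T1 1/1 clusters in RNase I 0.05/0.05 clusters, top clusters at 1 place in all libraries for 2 of 42 mRNAs, and between RNase I 0.05/0.05 and RNase T1 1/1 for 3 of 39. With 10 nt added on both sides, CAUU lay in 46.8%, 48.4% and 42.1% of clusters (RNase I 0.05/0.05, RNase I 0.1/0.025, RNase T1 1/1) and CAGU in 43.98%, 40.3%, 24.7% and 21.6% (RNase I 0.05/0.05, RNase I 0.05/0.025, RNase T1 1/1, RNase T1 0.25/0.25). In the top cluster of each mRNA, CAUU lay in 61.4%, 52.9% and 52.6% with RNase I, and CAGU in 68.2%, 61.8% and 55.3% with RNase I and 18.6% with RNase T1 1/1. Of the 5 leading classes, 3 were shared when ranked by the mean over members, and all 5 with clusters on 1 gene only, though the first 2 changed places. Targets in all 5 libraries numbered 19 above 5 CPM, 12 above 20 CPM, and 15 with clusters on 1 gene only, which loses PPP2CA. RNase T1 0.25/0.25, with 182448 cluster reads, limits each count over all 5 libraries: without it, 19 subunit mRNAs were targets in the other 4. For target and cluster counts under these other settings, no share of all protein-coding genes was computed.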

Other observations

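Pseudogenes named after subunit genes carried few clusters. Of 32 such pseudogenes, 3 had clusters in an IGF2BP3 library, 9 clusters in all. PPP2R5CP had 12.7 CPM with RNase I 0.05/0.05, 7.45 CPM with RNase I 0.05/0.025 and 8.64 CPM with RNase T1 1/1. PPP1R14BP3 had 11.9 CPM with RNase I 0.05/0.05 and 10.4 CPM with RNase I 0.05/0.025. PPP1R14BP2 had 2.96 CPM with RNase I 0.05/0.05. How reads of near-identical copies were divided was not tested.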
